A study of Mus musculus with 14 samples.

Results

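A set of 10 genes that mark disease-associated microglia or form the TREM2 receptor complex was followed in brain RNA of mice with chemically induced Gaucher disease. They were Trem2, Tyrobp, Clec7a, Itgax, Cst7, Axl, Spp1, Gpnmb, Cd9 and Lgals3, taken by symbol from the deposited table of read counts. All 10 of 10 were present among 13866 listed genes, and 9 passed the filter on low counts that left 11852 genes to test. Gpnmb did not pass and is described by its counts. Several of these genes were singled out by the study on these same libraries, so their direction is not independent evidence.

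The 14 libraries, 1 per mouse, came from brain homogenates of 19-day-old mice in 4 groups. WT mice were of the C57BL/6JOlaHsd strain and received phosphate buffered saline (WT + PBS, n = 3) or conduritol B-epoxide (WT + CBE, n = 3), a compound that irreversibly inhibits the lysosomal enzyme glucocerebrosidase. MyTrMaSt null mice, -/- for Myd88, Trif (Ticam1), Mavs and Tmem173 (STING), received the same treatments (MyTrMaSt + PBS, n = 3, and MyTrMaSt + CBE, n = 5). Injections were intraperitoneal and daily from day 8, with 100 mg CBE per kg body weight. The WT mice were bought and the null mice are a separate line, so the deletions and the line cannot be told apart. The question was which responses to CBE need the adaptors of pattern recognition receptors and which do not.

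TREM2 is a lipid-sensing receptor on microglia that signals through the adaptor TYROBP (DAP12), which carries an activation motif that recruits the kinase SYK. Microglia near dying neurons, myelin debris or protein aggregates take up a state known as disease-associated, in which homeostatic genes go down and genes of phagocytosis, lipid handling and adhesion come up, the later step of which depends on TREM2. In Gaucher disease, glucosylceramide collects in lysosomes, and microglia and neurons are the brain cells most studied for it.

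RefSeq promoter windows (GRCm38.p6, 250 bases before to 50 bases after a transcription start) were matched by symbol for 9 of the 10 genes, all but Tyrobp, with 11 windows in all since Clec7a and Spp1 had 2 each. Windows of 5 members that were higher with CBE in both genotypes are shown to print the control region beside the RNA values that follow. All 5 hold a match marked below, whereas the windows of Lgals3, also called higher in both genotypes, and of Cd9 held none. Capitals mark letters that match, on either strand, a PU.1 core (GAGGAA), an AP-1-like element (TGANTCA, N being any base) or an interferon-response core (TTTCNNTTT).
Trem2, chr17:48346151-48346450, plus strand: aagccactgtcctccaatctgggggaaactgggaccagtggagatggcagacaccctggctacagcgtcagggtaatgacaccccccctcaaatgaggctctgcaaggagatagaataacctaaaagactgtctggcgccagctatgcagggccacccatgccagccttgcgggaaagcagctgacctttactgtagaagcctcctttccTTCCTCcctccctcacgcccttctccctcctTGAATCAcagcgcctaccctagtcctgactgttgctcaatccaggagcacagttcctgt
Itgax, chr7:128129300-128129599, plus strand: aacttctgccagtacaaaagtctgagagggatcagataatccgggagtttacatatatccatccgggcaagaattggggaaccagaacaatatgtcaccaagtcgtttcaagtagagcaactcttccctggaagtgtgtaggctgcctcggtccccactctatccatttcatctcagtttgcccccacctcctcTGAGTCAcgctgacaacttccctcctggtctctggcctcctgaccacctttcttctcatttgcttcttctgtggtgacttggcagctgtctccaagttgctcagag
Cst7, chr2:150570165-150570464, plus strand: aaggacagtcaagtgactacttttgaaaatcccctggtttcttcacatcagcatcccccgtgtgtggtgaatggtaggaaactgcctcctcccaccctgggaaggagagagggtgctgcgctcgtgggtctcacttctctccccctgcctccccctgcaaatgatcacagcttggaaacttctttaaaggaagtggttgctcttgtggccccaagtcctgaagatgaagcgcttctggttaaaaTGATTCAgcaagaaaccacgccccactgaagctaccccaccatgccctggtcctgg
Clec7a, chr6:129472730-129473029, minus strand: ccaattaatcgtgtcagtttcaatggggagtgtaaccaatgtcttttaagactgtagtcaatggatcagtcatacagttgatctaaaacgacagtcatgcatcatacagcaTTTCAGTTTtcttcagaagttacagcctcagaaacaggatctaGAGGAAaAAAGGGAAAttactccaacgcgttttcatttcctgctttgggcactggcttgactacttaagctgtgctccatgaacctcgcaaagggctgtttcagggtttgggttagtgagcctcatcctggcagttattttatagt
Spp1, chr5:104434861-104435160, plus strand: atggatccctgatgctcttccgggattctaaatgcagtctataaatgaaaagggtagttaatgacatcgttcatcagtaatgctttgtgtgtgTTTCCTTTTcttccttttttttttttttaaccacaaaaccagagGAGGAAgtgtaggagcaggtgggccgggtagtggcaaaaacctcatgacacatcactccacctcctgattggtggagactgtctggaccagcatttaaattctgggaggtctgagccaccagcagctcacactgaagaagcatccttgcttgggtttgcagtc
The AP-1-like letters lay 9, 56 and 6 bases before the start of Trem2, Itgax and Cst7. They were held by 4 of the 9 genes, the fourth being Gpnmb, against 8.97% of 27025 genes with at least 1 such window. The usual AP-1 site has C or G as its middle base, as Itgax and Gpnmb have here, whereas Trem2 has A and Cst7 has T. The PU.1 core was found in 4 of 9 genes (Trem2, Clec7a, Axl and Spp1) and in 31.25% of all genes. The interferon-response core was found in 3 of 9 genes (Clec7a, Spp1 and Gpnmb) and in 12.1% of all genes. By window, the shares were 4, 5 and 5 of 11 against 7.81%, 28.3% and 10.55% of 32851 windows. Both Clec7a windows cover nearly the same bases and hold the same matches, so the same stretch of DNA is counted again in these shares. No member window held the E-box CACGTG, the M-box TCATGTG or the GAS element TTCNNNGAA, which were in 7.15%, 3.77% and 8.298% of windows. None of the marked matches overlapped another, and a match of letters is a description of the window only.

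The libraries held 1290616 to 3704691 counts each. The shallowest, replicate 1 of WT + PBS, stood apart: the mean correlation of its log2 values with its own group was 0.870, against 0.923 for the other libraries of that group and 0.955 to 0.979 elsewhere, so values without it are given beside the members' results that it moved most. Xist, transcribed in female cells, had 0 counts in WT + PBS, 1 to 47 in WT + CBE, 32 to 46 in MyTrMaSt + PBS and 0 to 39 in MyTrMaSt + CBE, and sex is not in the labels. Of the deleted genes, Myd88 was at 9.95 to 17.1 CPM (counts scaled to library size) in WT + PBS and 3.11 to 4.49 CPM in MyTrMaSt + PBS. Myd88, Ticam1, Mavs and Tmem173 all had counts in all 14 libraries. With PBS, Tmem173 stood at 5.02 to 7.04 CPM in the null mice, above its 0.902 to 2.49 CPM in WT, although the difference did not pass (log2 1.62, edgeR adjusted p = 0.101). A read at the 3' end that lies outside the deleted part does not check a deletion. Microglial markers were present, with 12 of 12 pan-microglial and 9 of 11 homeostatic genes passing the filter.

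CBE raised the RNA of these genes in WT brain. The filter kept genes with at least 10 counts, scaled to the median library, in 3 or more libraries. Trem2, Tyrobp, Axl, Spp1, Cd9 and Lgals3 reached this with the PBS libraries alone, as did 11009 of the 11852 tested genes. Clec7a, Itgax and Cst7 reached it in 0 PBS libraries and were tested only through the CBE groups, where they were high, so they are left out of the counts and medians that follow. Of the 6, 6 were called higher with CBE in WT, where a call needs a change of at least 2-fold and an adjusted p under 0.05, against 2.99% of the 11009 genes. Their median log2 fold change was 2.66, against -0.04 over those genes. In MyTrMaSt mice, 4 of the 6 were called higher (1.93%), 5 had an adjusted p under 0.05 at any fold (4.17%), and the median was 2.70 against -0.01. The 4 called in both genotypes, as were 1.35% of the 11009 genes, were Trem2, Tyrobp, Spp1 and Lgals3, and those called in WT but not in MyTrMaSt were Axl and Cd9. In all 6 the CBE libraries lay above the PBS libraries in both genotypes, against 12.8% of the 11009 genes in WT and 10.5% in MyTrMaSt. Without replicate 1 of WT + PBS, the 6 were again called in WT, with log2 values of 2.90 for Trem2, 3.04 for Tyrobp, 1.44 for Axl, 4.18 for Spp1, 1.49 for Cd9 and 6.63 for Lgals3, and the log2 value of Axl in MyTrMaSt, 0.36, then had an edgeR adjusted p of 0.0437, under the 2-fold threshold. These are whole-tissue libraries, so more cells of a type and more RNA per cell cannot be told apart.

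**Figure D1:**
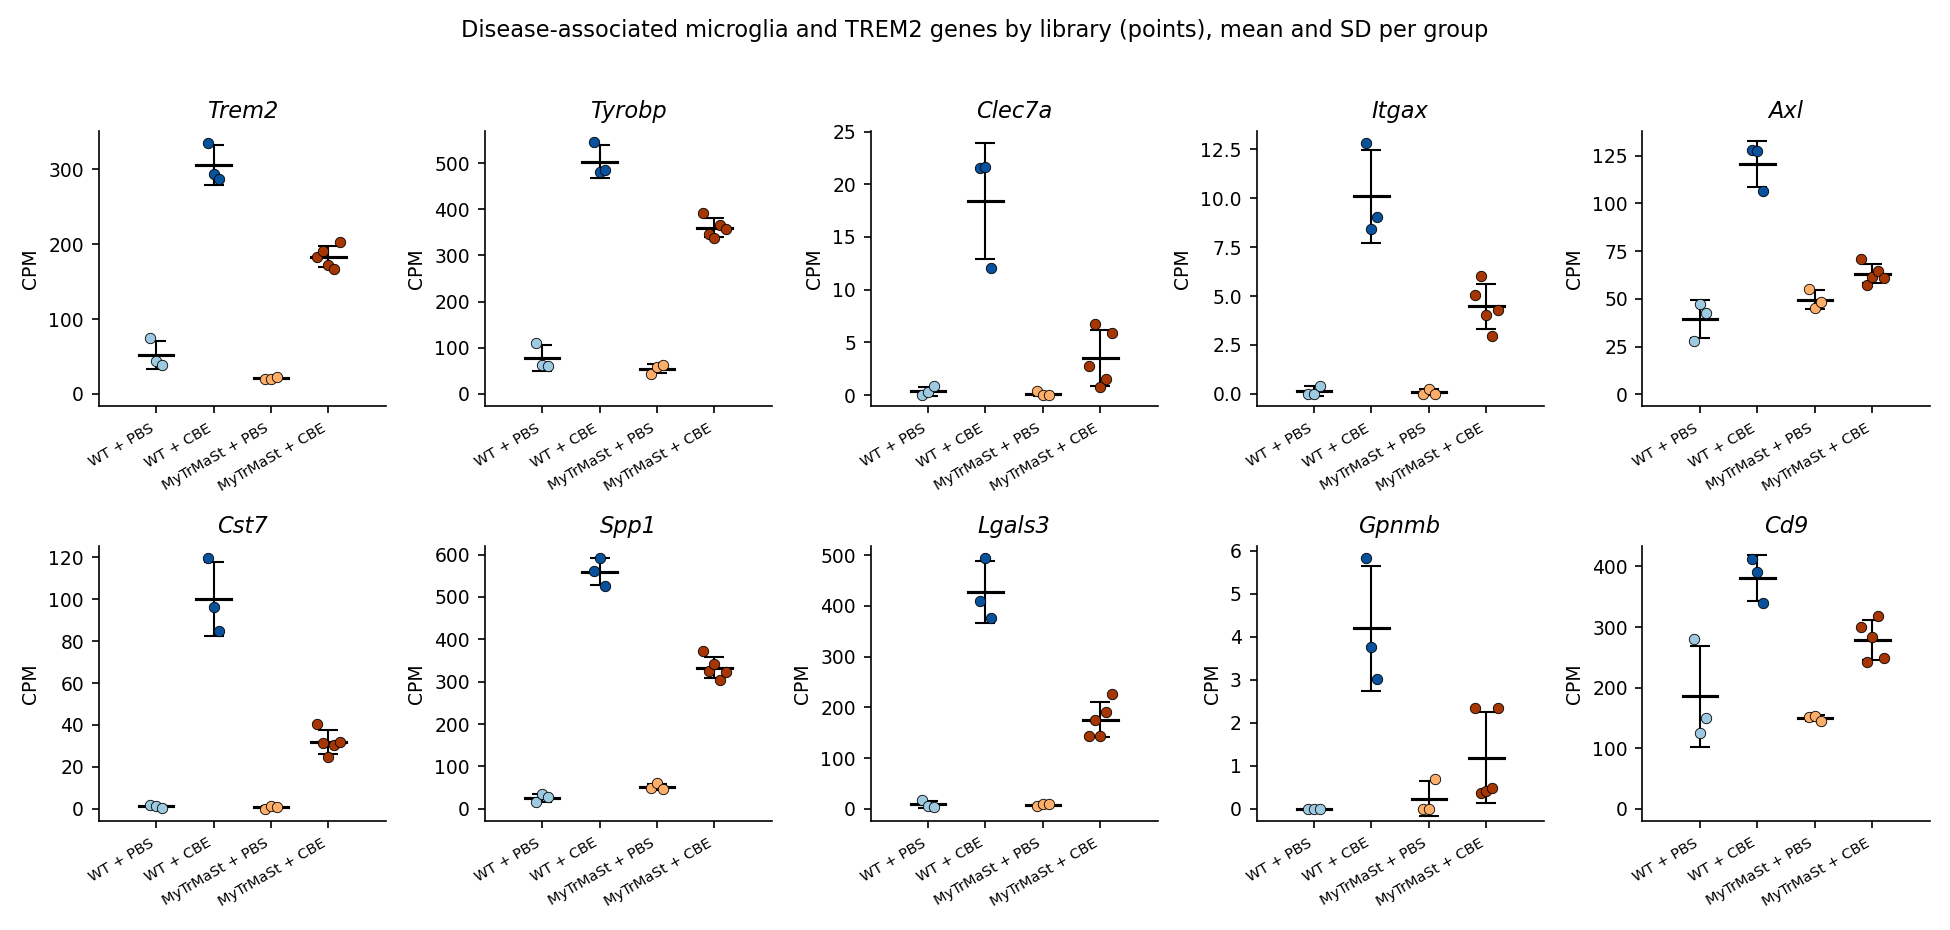
Library-size-scaled counts (CPM, y axis) of each of the 10 genes in every library (points) of the 4 groups (x axis), with the group mean (horizontal line) and SD (bars). In every panel the 5 MyTrMaSt + CBE points sit below the 3 WT + CBE points.

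Trem2, at chr17:48346401-48354147 (GRCm38, plus strand), encodes the receptor itself. It stood at 74.0, 43.4 and 39.2 CPM in WT + PBS and at 336, 294 and 287 CPM in WT + CBE. In MyTrMaSt + PBS it was at 20.0, 19.3 and 22.5 CPM, and in MyTrMaSt + CBE at 183, 191, 172, 167 and 203 CPM. The 4 groups did not overlap, and their order was MyTrMaSt + PBS, WT + PBS, MyTrMaSt + CBE and WT + CBE. CBE raised Trem2 6.05-fold in WT (log2 2.60 ± 0.20 SE, edgeR adjusted p = 4.25e-08) and 8.89-fold in MyTrMaSt (log2 3.15 ± 0.19 SE, edgeR adjusted p = 1.71e-08). Between these responses the difference was 0.56 on the log2 scale, with a 95% interval of 0.01 to 1.10, and did not pass the test (edgeR adjusted p = 0.395). It was 0.27 without WT + PBS replicate 1 (edgeR adjusted p = 0.649).

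Tyrobp, the signalling partner of TREM2, lies at chr7:30413760-30417585 on the plus strand. It stood at 111, 63.0 and 60.3 CPM in WT + PBS and at 545, 481 and 484 CPM in WT + CBE. The null mice had 43.2, 59.2 and 61.6 CPM with PBS and 392, 347, 338, 366 and 357 CPM with CBE. The CBE groups lay clear of the PBS groups in both genotypes, while the 2 PBS groups overlapped. The change was 6.61-fold in WT (log2 2.72 ± 0.21 SE, edgeR adjusted p = 4.25e-08) and 6.58-fold in MyTrMaSt (log2 2.72 ± 0.19 SE, edgeR adjusted p = 6.11e-08). The difference of the responses was -0.01 on the log2 scale with a 95% interval of -0.58 to 0.57, so that a difference in either direction within this interval was not detectable here. It was -0.32 without WT + PBS replicate 1 (edgeR adjusted p = 0.558).

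Among the other surface receptors, Clec7a encodes dectin-1, a receptor for fungal beta-glucan that also signals through SYK. It had 0, 1 and 2 counts in WT + PBS and 74, 46 and 20 counts in WT + CBE. In the null mice the counts were 1, 0 and 0 with PBS and 7, 18, 2, 3 and 15 with CBE. Both CBE groups lay above their PBS group, and MyTrMaSt + CBE, at 0.811 to 6.76 CPM, lay below WT + CBE, at 12.1 to 21.6 CPM. Scaled to library size, the summed counts were 45.8 times as high in WT + CBE as in WT + PBS (counting interval 15.4 to 225). In MyTrMaSt the ratio was 34.9 (counting interval 5.95 to 1408). These 95% intervals cover counting error only. Clec7a passed the filter only through WT + CBE, its highest group, so no p is given for these ratios. The annotation used here lists Clec7a at chr6:129461591-129472779 as a polymorphic pseudogene.

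Itgax, at chr7:128129547-128150657 on the plus strand, encodes the integrin alpha chain CD11c, which pairs with the beta2 chain Itgb2. In WT it had 0, 0 and 1 counts with PBS and 44, 18 and 15 counts with CBE. With the adaptors deleted they were 0, 1 and 0 with PBS and 13, 16, 10, 6 and 11 with CBE. CD11c RNA was thus near the limit of detection without CBE in both genotypes. The ratio of scaled counts was 75.6 in WT (counting interval 13.2 to 3025) and 43.4 in MyTrMaSt (counting interval 7.48 to 1745). Itgax passed the filter only through the CBE groups, where it was high, so no p is given for these ratios.

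Axl, at chr7:25757273-25788705 on the minus strand, encodes a receptor tyrosine kinase that binds GAS6 on dying cells. It stood at 28.0, 47.2 and 42.6 CPM in WT + PBS and at 128, 128 and 107 CPM in WT + CBE. The values were 54.9, 45.4 and 48.3 CPM in MyTrMaSt + PBS and 70.9, 57.5, 61.6, 64.5 and 61.1 CPM in MyTrMaSt + CBE. In WT the groups were far apart, and in MyTrMaSt the lowest CBE library lay just above the highest PBS library. CBE raised Axl 2.99-fold in WT (log2 1.58 ± 0.18 SE, edgeR adjusted p = 6.15e-06). In MyTrMaSt the value was 1.27-fold (log2 0.35 ± 0.16 SE) and did not pass (edgeR adjusted p = 0.186). The difference between the responses was -1.23 on the log2 scale (95% interval -1.73 to -0.73, edgeR adjusted p = 0.0218).

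Cst7, at chr2:150570415-150578944 on the plus strand, encodes cystatin F, an inhibitor of lysosomal cathepsins. It stood at 1.80, 1.11 and 0.422 CPM in WT + PBS (7 counts in all) and at 120, 96.2 and 85.0 CPM in WT + CBE. In MyTrMaSt + PBS it had 0, 5 and 3 counts, and in MyTrMaSt + CBE it was at 40.5, 31.5, 24.7, 30.5 and 31.7 CPM. The PBS groups overlapped and both CBE groups were clear of them and of each other. Cst7 rose 97.1-fold in WT (log2 6.60 ± 0.40 SE), and 36.1-fold in MyTrMaSt (log2 5.17 ± 0.39 SE). It passed the filter only through the CBE groups, where it was high, so no p is given for these changes. The difference of the responses, -1.43 on the log2 scale, did not pass (edgeR adjusted p = 0.473).

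Spp1, at chr5:104435118-104441050 on the plus strand, encodes osteopontin, a secreted ligand of CD44 and of several integrins. WT + PBS libraries held it at 15.3, 34.0 and 27.8 CPM and WT + CBE libraries at 561, 592 and 527 CPM. MyTrMaSt + PBS libraries held it at 49.0, 60.0 and 45.8 CPM and MyTrMaSt + CBE libraries at 372, 326, 341, 304 and 323 CPM. No 2 of the 4 groups overlapped, with the null mice above WT with PBS, a difference that did not pass (edgeR adjusted p = 0.0686), and below WT with CBE. Spp1 rose 20.6-fold in WT (log2 4.37 ± 0.21 SE, edgeR adjusted p = 9.24e-10) and 6.44-fold in MyTrMaSt (log2 2.69 ± 0.18 SE, edgeR adjusted p = 3.44e-08). The responses differed by -1.68 on the log2 scale (95% interval -2.21 to -1.15, edgeR adjusted p = 0.00371). Its exons overlap those of Gm42793 on the same strand, and reads of the pair may be split.

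Lgals3, at chr14:47367751-47386160 on the plus strand, encodes galectin-3 (Mac-2), a lectin that binds damaged lysosomes and is used to stain activated microglia. It stood at 17.1, 4.97 and 3.37 CPM in WT + PBS and at 410, 494 and 376 CPM in WT + CBE. Null mice had 5.52, 9.25 and 9.16 CPM with PBS and 143, 176, 144, 191 and 226 CPM with CBE. Both CBE groups lay far above the PBS groups, which overlapped, and the highest PBS value was that of replicate 1 of WT + PBS. Lgals3 rose 62.1-fold in WT (log2 5.96 ± 0.37 SE, edgeR adjusted p = 4.72e-09) and 21.8-fold in MyTrMaSt (log2 4.44 ± 0.32 SE, edgeR adjusted p = 7.88e-08). The difference of the responses, -1.51 on the log2 scale, did not pass with all libraries (edgeR adjusted p = 0.230). Without WT + PBS replicate 1 the WT value was 6.63 on the log2 scale and the difference was -2.18 (edgeR adjusted p = 0.00637).

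Gpnmb, a membrane glycoprotein of lysosome-rich phagocytes, lies at chr6:49036546-49070929 on the plus strand. It had 0, 0 and 0 counts in WT + PBS and 20, 8 and 5 counts in WT + CBE. With 3 counts set for the whole WT + PBS group the ratio would be 10.8, and the 95% counting interval from the actual counts starts at 8.30. MyTrMaSt + PBS had 0, 0 and 2 counts and MyTrMaSt + CBE had 6, 1, 1, 1 and 6 counts, a ratio of 5.81 (counting interval 1.35 to 52.4). The WT + CBE libraries held more Gpnmb, at 3.01 to 5.82 CPM, than any other library, and the 2 MyTrMaSt groups overlapped. Fitted without a filter on low counts, the WT change had an edgeR adjusted p of 0.00352 and the MyTrMaSt change one of 0.193.

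Cd9, at chr6:125460266-125494791 on the minus strand, encodes a tetraspanin made by many brain cell types. It stood at 281, 125 and 151 CPM in WT + PBS and at 413, 390 and 339 CPM in WT + CBE. The null mice had 152, 154 and 145 CPM with PBS and 300, 242, 284, 319 and 249 CPM with CBE. The spread in WT + PBS, an SD of 83.4 CPM on a mean of 185 CPM, came with replicate 1, and without that library the WT log2 fold change was 1.49. Cd9 rose 2.09-fold in WT (log2 1.06 ± 0.22 SE, edgeR adjusted p = 0.00383). In a fit of the WT libraries alone the log2 value was again 1.06, with an edgeR adjusted p of 0.102. Without WT + PBS replicate 2 or 3 or WT + CBE replicate 1 its log2 value was 0.84 to 0.997, just under 2-fold. In MyTrMaSt the change was 1.85-fold (log2 0.89 ± 0.20 SE, edgeR adjusted p = 0.00989), under the 2-fold threshold. A gene on the other strand, Gm26728, overlaps its exons, and the sources used here do not say if counting was by strand.

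**Figure D2:**
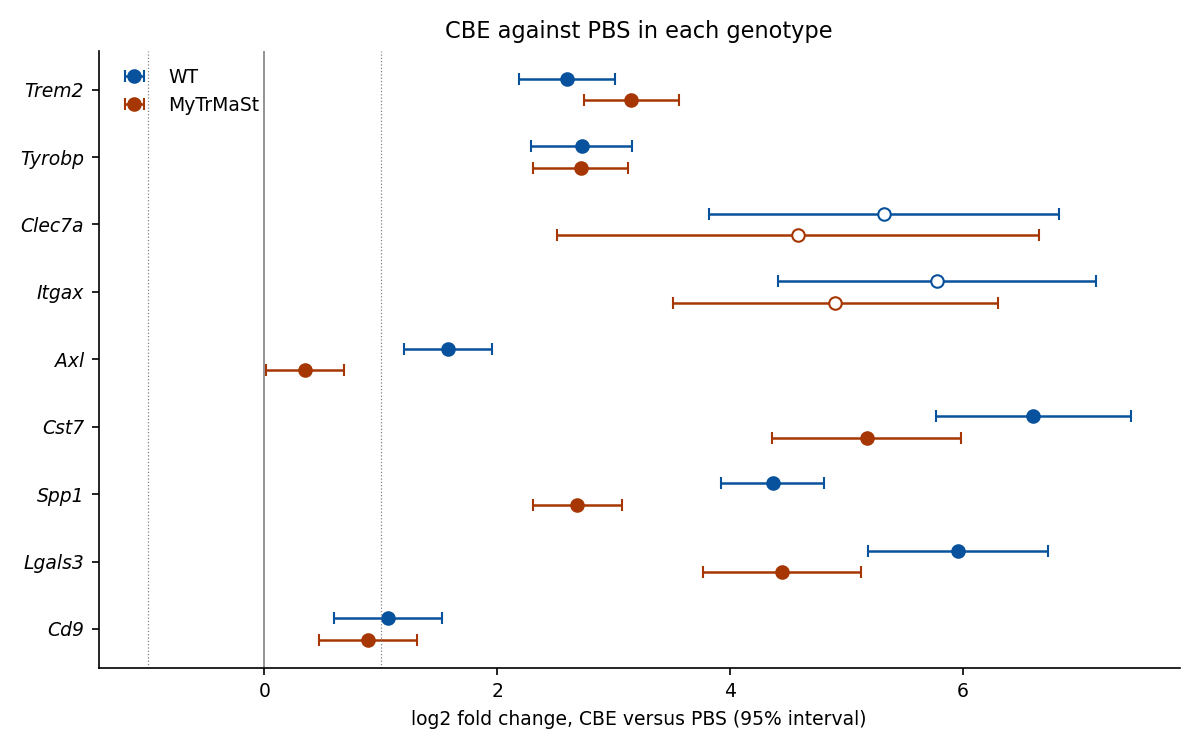
Log2 fold change of CBE versus PBS (x axis) for the 9 tested genes (y axis) in WT (blue) and MyTrMaSt (brown), with 95% intervals; dotted lines mark a 2-fold change and open symbols mark Clec7a and Itgax, whose control groups held 1 to 3 counts, so that their fitted values rest on few reads. Trem2 and Tyrobp lie at 2.60 and 2.72 in WT and 3.15 and 2.72 in MyTrMaSt, and the intervals of Axl, Spp1 and, narrowly, Lgals3 do not overlap between the genotypes, although the difference of the Lgals3 responses did not pass the interaction test.

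The genotypes were then compared within CBE. Clec7a and Gpnmb did not reach the filter's minimum in 3 MyTrMaSt + CBE libraries and are left out of the counts here. The other 8 members were lower in every MyTrMaSt + CBE library than in any WT + CBE library, as were 5.30% of the 11059 genes that reached this minimum. Of the 8, 3 were called lower (1.23% of these genes) and 6 had an adjusted p under 0.05 at any fold (1.67%). The 3 were Cst7, 3.16-fold lower (log2 -1.66 ± 0.21 SE, edgeR adjusted p = 4.51e-05), Lgals3, 2.43-fold lower (log2 -1.28 ± 0.23 SE, edgeR adjusted p = 0.00235), and Itgax, 2.27-fold lower (log2 -1.18 ± 0.30 SE, edgeR adjusted p = 0.0443). Clec7a, which was tested only through WT + CBE, its highest group, had a value 5.11-fold lower (log2 -2.35 ± 0.41 SE, edgeR adjusted p = 0.00158). The call of Itgax was lost without any of 10 single libraries, at log2 values of -1.30 to -0.94 (edgeR adjusted p up to 0.475, without WT + CBE replicate 1). It was also lost with DESeq2 (log2 -1.19, adjusted p = 0.0643) and with no filter on low counts (log2 -1.18, edgeR adjusted p = 0.0554).

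Smaller differences that passed at any fold were those of Axl, 1.92-fold (log2 -0.94, edgeR adjusted p = 0.000731), Spp1, 1.68-fold (log2 -0.75, edgeR adjusted p = 0.00794), and Trem2, 1.67-fold (log2 -0.74, edgeR adjusted p = 0.0102). Trem2 and Spp1 did not pass in every setting, with adjusted p up to 0.104 and 0.134 over the alternatives. For Tyrobp the value was 1.399-fold (log2 -0.48, 95% interval -0.83 to -0.14) and for Cd9 1.37-fold (log2 -0.45, 95% interval -0.86 to -0.05), and neither passed (edgeR adjusted p = 0.223 and 0.487), although both passed without WT + PBS replicate 1 (edgeR adjusted p = 0.00533 and 0.0135). Gpnmb, by summed counts, was at 0.267 of the WT + CBE level (counting interval 0.135 to 0.506). The comparison shares its libraries with the CBE versus PBS comparisons above.

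With PBS, Xist had 0 counts in the WT libraries and 32 to 46 in the MyTrMaSt libraries, so Xist level and genotype cannot be told apart in this comparison. Trem2 was the member called different between the genotypes with PBS. It was 2.45-fold lower in MyTrMaSt + PBS than in WT + PBS (log2 -1.29 ± 0.21 SE, edgeR adjusted p = 0.0114), a direction in which 0.127% of tested genes were called. The 3 null libraries, at 19.3 to 22.5 CPM, lay below the 3 WT libraries, at 39.2 to 74.0 CPM, as did 10.1% of tested genes in that direction. Without WT + PBS replicate 1, the highest of them, the log2 value was -1.01 (edgeR adjusted p = 0.00394). Without MyTrMaSt + PBS replicate 1 or 2 it was -1.28 and -1.25, but the edgeR adjusted p was 0.0734 and 0.0792. The call was also lost in a fit of the PBS libraries alone (log2 -1.30, edgeR adjusted p = 0.588) and with the Xist level as a covariate (log2 -1.41, edgeR adjusted p = 0.214). Spp1 went the other way, with a value 1.91-fold higher in MyTrMaSt + PBS (log2 0.93 ± 0.20 SE) that did not pass (edgeR adjusted p = 0.0686) but passed at under 2-fold without WT + PBS replicate 1 (log2 0.73, edgeR adjusted p = 0.0481) and was called without replicate 2 (log2 1.18, edgeR adjusted p = 0.0164). Its groups did not overlap, as for 10.1% of tested genes in that direction. For Clec7a, Itgax and Gpnmb both PBS groups were at 3 counts or fewer in all, and no fold is read from them. The remaining 5 members overlapped between the PBS groups, with log2 values of -0.48 for Tyrobp, -0.28 for Cd9, -0.23 for Cst7, 0.23 for Lgals3 and 0.29 for Axl. These values moved to -0.17, 0.13, 0.0097, 0.89 and 0.13 without WT + PBS replicate 1, and none passed (edgeR adjusted p = 0.373 to 0.999). The overlap of Lgals3 came from that library, the others of WT + PBS lying below MyTrMaSt + PBS.

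**Figure D3:**
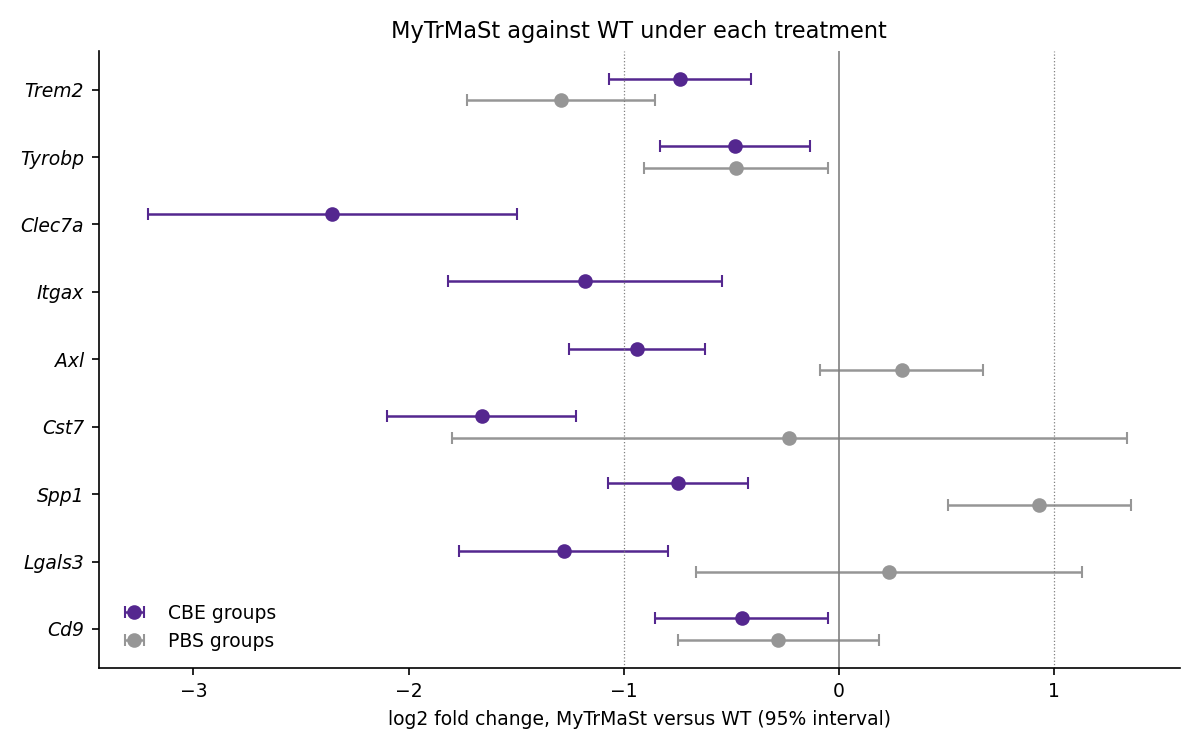
Log2 fold change of MyTrMaSt versus WT (x axis) for the 9 tested genes (y axis) in the CBE groups (purple) and the PBS groups (grey), with 95% intervals; dotted lines mark a 2-fold change, and Clec7a and Itgax have no PBS value because both PBS groups held 3 counts or fewer. All 9 CBE values lie below 0, from -2.35 to -0.45, whereas the PBS values run from -1.29 for Trem2 to 0.93 for Spp1.

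The interaction of genotype and CBE, the response in MyTrMaSt minus the response in WT, asks whether the responses differ. It passed for Axl and Spp1, 2 of the 6 members that reached the filter's minimum with PBS, both with the smaller response in MyTrMaSt (0.327% of the 11009 genes passed in that direction). Of the other members with more than 3 counts in each PBS group, Cst7 and Lgals3 had values of -1.43 and -1.51, Cd9 -0.17, Tyrobp -0.01 and Trem2 0.56. With Xist as a covariate neither Axl nor Spp1 passed (edgeR adjusted p = 0.1201 and 0.0592), at values of -1.33 and -1.64. Axl also lost its call without any one of WT + CBE replicates 1 and 2, MyTrMaSt + PBS replicates 1 and 3 and MyTrMaSt + CBE replicate 2 (edgeR adjusted p = 0.0513 to 0.0780), at values of -1.25 to -1.15.

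Markers of microglia as a whole moved in the same direction. For this and the later gene lists, the shares of all tested genes called higher with CBE were 5.20% in WT and 3.23% in MyTrMaSt. Between the CBE groups 1.93% were called lower in MyTrMaSt, and 0.413% had an interaction called below 0. Of 12 pan-microglial genes, 11 were called higher with CBE in WT and 9 in MyTrMaSt, and 5 were called lower in MyTrMaSt + CBE than in WT + CBE. Their summed level was 869 ± 137 CPM (SD, n = 3) in WT + PBS, 4668 ± 316 CPM (n = 3) in WT + CBE, 637 ± 19.4 CPM (n = 3) in MyTrMaSt + PBS and 2323 ± 125 CPM (n = 5) in MyTrMaSt + CBE. Ptprc, the leukocyte phosphatase CD45, rose by 3.60 on the log2 scale in WT and by 1.28 in MyTrMaSt, and C1qc, a chain of complement C1q, rose by 2.90 and 2.37. Of 9 tested homeostatic genes, 3 were called higher in WT, 2 in MyTrMaSt and 0 were called between the CBE groups by edgeR, where 3 had an unadjusted p under 0.05. The WT calls without WT + PBS replicate 1 were 12 pan-microglial genes, with Csf1r added, and 5 homeostatic genes, with Csf1r and Tmem119 added. The interaction passed for 1 pan-microglial gene, Ctss, with all libraries and for 5 without that library, which added Aif1, Ptprc, C1qa and Laptm5, all with the smaller response in MyTrMaSt. The summed level of the 10 homeostatic genes in the table was 254, 441, 255 and 383 CPM in the same order of groups. P2ry13 and Cx3cr1 were among the 3, at log2 values of 1.10 and 1.85 in WT, while Siglech and Selplg, at -0.14 and -0.18, did not pass. The part of these markers in the members' results was not tested.

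On the scale of the pan-microglial sum most genes shift together, since that sum was itself higher with CBE in both genotypes. With CBE 88.4% of tested genes took a smaller share in WT and 93.7% in MyTrMaSt without overlap, and 1.13% and 0.515% took a larger one. Set against this sum, Trem2 and Tyrobp were at 1.11 and 1.22 times the PBS level in WT, with overlapping groups, and took 2.44 and 1.81 times the PBS share in MyTrMaSt, where the groups did not overlap. The WT overlap came from WT + PBS replicate 1, and without it the shares were 1.25 and 1.38 times the PBS level and did not overlap. Cst7, Lgals3 and Spp1 took a larger share with CBE in both genotypes, 17.1, 10.01 and 3.85 times in WT and 11.0, 6.02 and 1.77 times in MyTrMaSt, without overlap. Cd9 took a smaller share, 0.394 times in WT and 0.509 times in MyTrMaSt, without overlap, and Axl was at 0.550 times in WT, where the groups overlapped, and 0.350 times in MyTrMaSt, where they did not. The WT value for Axl without WT + PBS replicate 1 was 0.455 times, with no overlap, and the shares of Lgals3, Spp1, Cst7 and Cd9 were 17.2, 3.06, 21.6 and 0.472 times. Per 100 CPM of the pan-microglial sum, Trem2 was at 6.54 ± 0.25 (SD, n = 3) in WT + CBE and 7.90 ± 0.56 (n = 5) in MyTrMaSt + CBE, Tyrobp at 10.8 ± 0.20 and 15.5 ± 0.90, and Cd9 at 8.17 ± 0.74 and 12.02 ± 1.52, and these 3 of 10 members were higher in MyTrMaSt + CBE without overlap, which also held for 80.4% of all tested genes on this scale. Cst7 was lower there without overlap, as were 1.15% of tested genes. No test was run on these shares.

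The direction between the CBE groups depended on the sum chosen. Set against the homeostatic sum, Trem2 was 1.45 times and Tyrobp 1.22 times as high in WT + CBE as in MyTrMaSt + CBE, where against the pan-microglial sum the ratios were 0.828 and 0.695. Cst7 was higher in WT + CBE by both sums, 1.56 and 2.73 times, as was Clec7a, 2.61 and 4.40 times, with groups that overlapped for Clec7a by the pan-microglial sum. These ratios are descriptions, with no test, of shares of RNA and not of single cells.

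**Figure D4:**
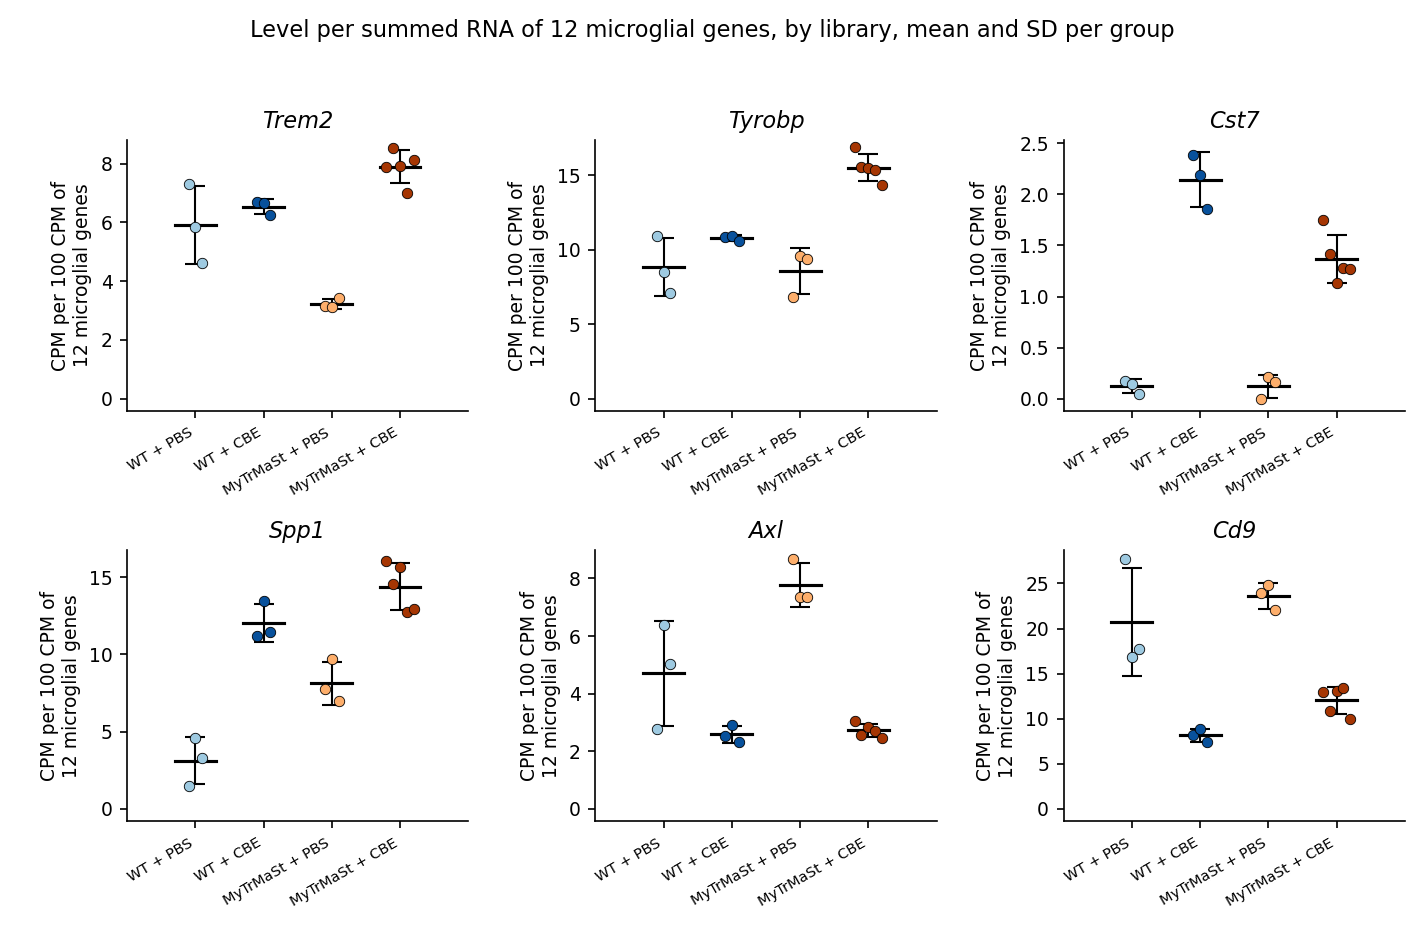
Level of 6 members per 100 CPM of the summed 12 pan-microglial genes (y axis) in every library (points) of the 4 groups (x axis), with group mean (line) and SD (bars). Trem2 and Tyrobp are highest in MyTrMaSt + CBE at 7.90 and 15.5, Cst7 is highest in WT + CBE at 2.14, and Cd9 falls with CBE in both genotypes.

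The other genes of the disease-associated program were read from 2 fixed lists, called early and late here. The published account of the program places Ctsl and Timp2, which are in the early list, in its later, TREM2-dependent step. Of 13 genes in the early list, 6 were called higher with CBE in WT and 3 in MyTrMaSt, and 3 were called lower in MyTrMaSt + CBE than in WT + CBE. Lyz2, lysozyme, rose by 3.71 on the log2 scale in WT and 2.96 in MyTrMaSt, and B2m, the light chain of MHC class I, rose by 3.25 in WT and stood at 0.81 in MyTrMaSt, where it did not pass. Timp2, an inhibitor of metalloproteinases, and Npc2, a lysosomal cholesterol carrier, were not called in either genotype. Of 15 tested genes in the late list, 7 were called higher in WT and 8 in MyTrMaSt (5.20% and 3.23% of all tested genes), with median log2 values of 1.31 and 1.14. In this list 2 were called lower in MyTrMaSt + CBE. The calls without WT + PBS replicate 1 were 9 early genes in WT, with Apoe, Cstb and Hexa added, and 9 late genes in each genotype, with Ccl6 and Cd74 added in WT and Lpl in MyTrMaSt, and Ccl6 was then called higher in MyTrMaSt + CBE than in WT + CBE (log2 1.04, edgeR adjusted p = 0.0338). The interaction passed for 1 early gene, H2-D1, and 0 late genes by edgeR with all libraries (2 late genes had an unadjusted p under 0.05), and without that library for 4 early genes, with B2m (-1.95, edgeR adjusted p = 3.19e-06), Lyz2 and Ctsl added, and 1 late gene, Ctsz, all with the smaller response in MyTrMaSt. Ch25h, cholesterol 25-hydroxylase, rose by 4.30 and 3.65, and Cd52, a small surface glycoprotein, by 3.93 and 3.57. Serpine2 and Ank were not called in either genotype.

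Upstream of the receptor, 0 of 5 tested genes of a list of TREM2 ligands were called in either genotype by edgeR. Of these, 4 in WT and 3 in MyTrMaSt had an unadjusted p under 0.05. The list holds Gal, which encodes the neuropeptide galanin, and lacks Lgals3, galectin-3, a reported ligand that was called higher in both genotypes. Apoe, the lipoprotein that binds TREM2, stood at log2 0.89 in WT (edgeR adjusted p = 0.00159) and 0.66 in MyTrMaSt (edgeR adjusted p = 0.0114), and Clu, clusterin, at 0.51 in both (edgeR adjusted p = 0.0119 and 0.00873), all under the 2-fold threshold. Without WT + PBS replicate 1, Apoe was called higher in WT at log2 1.12 (edgeR adjusted p = 3.94e-06). Gal and Il34 did not pass in either genotype. Downstream, 7 of 16 tested genes of TREM2 signalling were called higher in WT and 5 in MyTrMaSt, and 2 were called lower in MyTrMaSt + CBE. Ptpn6, the phosphatase SHP-1, rose by 2.94 and 2.73, Lat2, a membrane adaptor also called NTAL, by 2.73 and 2.29, while Src and Vav3 did not pass, although Vav3 was called lower with CBE in MyTrMaSt without WT + PBS replicate 1 (log2 -1.15, edgeR adjusted p = 0.0170). Neither of the 2 proteases that shed TREM2 was called in either genotype, with Adam17 at 0.82 (edgeR adjusted p = 0.0311, under 2-fold) and Adam10 at 0.40 in WT. Treml2, the other listed TREM receptor, did not pass the filter, with 0 counts in WT + PBS, 5 to 16 in WT + CBE, 0 to 1 in MyTrMaSt + PBS and 1 to 4 in MyTrMaSt + CBE.

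The partners of the other members were read the same way. Itgb2, the beta2 chain that pairs with CD11c, rose by 3.86 on the log2 scale in WT and 2.53 in MyTrMaSt and was called lower in MyTrMaSt + CBE, and 2 of 3 tested beta2 integrins were called higher in each genotype. Pros1, a ligand of the AXL family, rose by 1.53 in WT and did not pass in MyTrMaSt at 0.99, whereas Gas6 and the AXL relative Tyro3 were not called. Of 7 receptors of osteopontin, 1 was called higher in WT and 2 in MyTrMaSt, and Cd44 rose in both, by 3.50 and 2.01. Of 4 tested galectins and their binding protein, 2 were called higher in WT and 3 in MyTrMaSt, and 2 had a smaller response in MyTrMaSt in the interaction test. Lgals1, galectin-1, was also called higher in WT without WT + PBS replicate 1 (log2 1.67, edgeR adjusted p = 3.03e-06). Lgals3bp, the galectin-3 binding protein, rose by 3.81 in WT and 2.12 in MyTrMaSt (interaction -1.68, edgeR adjusted p = 0.00683), and Lgals9 by 2.87 and 1.34 (interaction -1.53, edgeR adjusted p = 0.0346).

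Myeloid cells other than microglia can express several members, among them Clec7a, Itgax, Lgals3 and Spp1. Of 6 tested markers of border-associated macrophages, 3 were called higher with CBE in WT and 0 in MyTrMaSt by edgeR, where 0 also had an unadjusted p under 0.05. The summed level of the 7 markers in the table ran from 15.6 to 19.0 CPM with PBS and 47.6 to 60.5 CPM with CBE in WT, and from 20.0 to 21.7 CPM with PBS and 18.0 to 36.9 CPM with CBE in MyTrMaSt. Ms4a7 had a mean of 1.02 CPM in WT + PBS, 27.1 CPM in WT + CBE and 2.11 CPM in MyTrMaSt + CBE, the last 2 groups differing in the test (log2 -3.64, edgeR adjusted p = 7.60e-07). F13a1 rose by 2.14 in WT, and Pf4 and Cbr2 did not pass. Of 2 tested monocyte markers, Ly6c1 and Vcan, 0 were called in either genotype by edgeR (unadjusted p under 0.05 for 0 in WT and 1 in MyTrMaSt). Both are also made by other brain cells, so they cannot measure monocytes in whole-brain RNA. Ccr2, Ly6c2 and Plac8 were not among the listed genes. The third listed marker, Chil3, was too low to test, with 0 counts in all 6 PBS libraries, 1 to 11 counts in WT + CBE (18 in all) and 1 to 3 in MyTrMaSt + CBE (10 in all). Neutrophil markers summed to 0 to 5.67 CPM over all libraries, and 1 tested T cell gene, Cd4, was not called. The part of these cells in the members' results was not tested.

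The genes outside the members whose log2 CPM followed theirs most closely over the 14 libraries were taken as the 5 with the highest Pearson r. For Trem2 they were C1qb (Pearson r = 0.987), Ctsd (0.981), C1qa (0.979), Grn (0.978) and Snx20 (0.977), and for Tyrobp they were Ctsd (0.990), Lyz2 (0.985), Irf5 (0.984), Npl (0.984) and Sgk1 (0.982). For the mean of the 9 tested members they were Irf5 (0.996), Serpina3i (0.992), Npl (0.988), S100a6 (0.987) and Grn (0.987). Among the members, r over the 36 pairs ran from 0.673 for Axl with Cd9 to 0.984 for Tyrobp with Cst7. The points share the 4 groups, whose means enter r, so these values describe the libraries only.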

How the data were processed

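RNA of 14 mouse brains was measured with a bulk form of MARSseq, which reads transcript 3' ends. The authors sequenced the libraries on a NextSeq 500, mapped reads to mm10 with hisat and kept uniquely mapped reads. The submitters' processing notes also name cutadapt and HTSeq. How strand, molecular identifiers and the annotation entered the counting is not given in the sources used here. The authors deposited raw counts, 1 whole number per gene and library, with 1 cell, in a gene that is no member, written in rounded form. A normalized table and the authors' own comparisons (base mean, log2 fold change, p and adjusted p for CBE versus PBS in each genotype) were not used. Gene positions came from GENCODE on GRCm38.

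The counts were fitted with edgeR 4.0.16 in R 4.3.3 (filterByExpr with a minimum count of 10, TMM, quasi-likelihood F test, 1 mean per group, all 14 libraries), with Benjamini-Hochberg adjustment over 11852 genes. SE is the absolute log2 value over the root of F. The interaction was called at an adjusted p under 0.05 with no fold threshold. CPM (counts scaled to TMM-adjusted library totals) were worth 0.264 to 0.902 per read, and intervals of count ratios cover counting error only. The steps were tested on simulated data. Alternatives were RLE and upper-quartile factors, DESeq2 1.42.0, limma 3.58.1 voom with sample weights, other filters, fits of the compared groups alone, a replicate block, the Xist level as a covariate, no fold threshold and leaving out each library. Labels give 1 mouse per library and no litter or batch. No 2 libraries of a group agreed within sampling noise (chi-square per degree of freedom 2.35 to 21.0).

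The members and the 23 gene lists were chosen with earlier results of these data known. All 10 members are named, and of each list, by rule, at most the 2 tested genes with the highest and the 2 with the lowest WT change. Outside this rule, Ctss and H2-D1 were named because their interaction passed, after their values were seen. Treml2 and Chil3, which were not tested, genes whose calls changed without WT + PBS replicate 1, and marker genes not listed in the table were named after their values were seen.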

Additional observations from a re-analysis of the deposited data

Results flagged for a closer look

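The response to CBE differed between the genotypes for 2 members in the interaction test of the edgeR model, taken as MyTrMaSt minus WT. Axl had an interaction of -1.23 on the log2 scale, from a log2 change of 1.58 in WT and of 0.35 in MyTrMaSt, and Spp1 had one of -1.68, from 4.37 and 2.69. Over 22 alternatives the adjusted p ran from 0.000141 to 0.168 for Axl and from 1.11e-08 to 0.0592 for Spp1. Their values stayed below 0 in all of them, at -1.38 to -1.08 for Axl and -1.93 to -1.49 for Spp1.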

How the results depend on the processing

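Of 1026 values of single members under the alternatives, 972 kept their direction and side of the threshold, 30 became weaker, 4 stronger and 20 reversed. The counts of members called with CBE were 8 to 10 in WT and 7 to 8 in MyTrMaSt under all alternatives, and these counts include Clec7a, Itgax and Cst7, which passed the filter only through CBE groups. In the main fit 5.20% of tested genes were called higher with CBE in WT and 3.23% in MyTrMaSt. Between the CBE groups, 7 were called without the fold threshold in place of 4, Clec7a included, against 2.35% and 1.93% of tested genes called lower. Between the PBS groups the single call became 0 in a fit of those libraries alone, 0 with the replicate block and 0 with the Xist level, and 0 to 2 when 1 library was left out. The 2 interaction calls became 1 with the replicate block, 0 with the Xist level and 1 to 3 when 1 library was left out. Cd9 between the PBS groups was 0.11 with limma voom, and the Tyrobp interaction was 0.012 with the Xist level. With 1 library left out, values between the PBS groups ran from -1.93 to 1.67 for Itgax, -0.86 to 0.27 for Cst7, -0.51 to 0.13 for Cd9 and -0.13 to 0.89 for Lgals3. Interaction values ran from -0.32 to 0.14 for Tyrobp, -1.60 to 0.92 for Clec7a, -2.85 to 0.75 for Itgax and -0.59 to 0.053 for Cd9. The values of Clec7a and Itgax rest on PBS groups of 1 to 3 counts and are not read as folds. Lgals3 gained an interaction call with limma voom, at -2.11. The causes were not tested.

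Over all tested genes, calls in WT numbered 759, with 471 in a fit of the WT libraries alone and 1255 without the fold threshold, and in MyTrMaSt 461, with 292 under the replicate block and 919 without the fold threshold. Between the PBS groups they numbered 19 and ranged from 3 with the Xist level to 302 without WT + PBS replicate 2, and DESeq2 gave 114. For the interaction they numbered 58 and ranged from 9 with the Xist level to 145 with limma voom, and DESeq2 gave 133. Replicate numbers did not pair the libraries, since 3 of 18 same-numbered pairs had correlated deviations over 0.1 (-0.17 to 0.16). The block left 9, 7 and 3 members called in WT, in MyTrMaSt and between the CBE groups. These counts include members that passed the filter only through CBE groups. In the main fit 5.20%, 3.23% and 1.93% of tested genes were called in those directions. The calls that the block ended were those of Itgax between the CBE groups (edgeR adjusted p = 0.389), Trem2 between the PBS groups (0.0634) and the Axl interaction (0.168). Genes at 0 to 3 counts in a group, Clec7a, Itgax and Gpnmb, are limited by depth.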

Other observations

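Families related to the members and the markers of other brain cells were counted by the same rule. Of 2 tested cystatins, Cst3 and Cstb, 0 were called in either genotype by edgeR, with an unadjusted p under 0.05 for 1 in WT and 2 in MyTrMaSt, and Cstb was called higher in WT without WT + PBS replicate 1 (log2 1.12, edgeR adjusted p = 3.499e-05). Of 5 tested tetraspanins other than Cd9, 2 were called higher in each genotype: Cd37, at log2 values of 2.63 in WT and 2.41 in MyTrMaSt, and Cd63, at 1.90 and 1.69. Cd82 and Cd81 were not called. Of 3 tested MiT/TFE factors, which drive lysosomal genes and Gpnmb, 0 were called in either genotype by edgeR, with an unadjusted p under 0.05 for 1 in each, and Tfe3, Mitf and Tfeb had values of 0.64, 0.15 and -0.45 in WT.

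Of 6 astrocyte markers, 2 were called higher in WT (Gfap at 3.31 and Aqp4 at 1.81) and 1 in MyTrMaSt. Without WT + PBS replicate 1, Gfap was at 3.92 and Aqp4 at 1.56 in WT. Of 6 oligodendrocyte markers, 0 were called in either genotype by edgeR, although 6 in WT and 3 in MyTrMaSt had an unadjusted p under 0.05, with a median log2 value of -0.79 in WT and -0.31 in MyTrMaSt. Of 7 neuronal markers, 1 was called lower in WT (Slc17a7 at -1.60) and 0 in MyTrMaSt by edgeR, where 1 had an unadjusted p under 0.05. The call of Slc17a7 rested on WT + PBS replicate 1, and without it the value was -0.43 (edgeR adjusted p = 0.113) and 0 neuronal markers were called in WT. Of 5 endothelial markers 0 were called in WT by edgeR, where 0 had an unadjusted p under 0.05, and 1 was called lower in MyTrMaSt. The part of these cell types in the members' results was not tested.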
